A study of Mus musculus with 9 samples.

Results

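Cells carry proteins that detect RNA or DNA whose form or place points to a virus or to a transcribed repeat. RIG-I (gene Ddx58) and MDA5 (Ifih1) bind viral-type RNA in the cytosol and signal through the mitochondrial adaptor MAVS, and LGP2 (Dhx58) tunes both. Toll-like receptor 3 (Tlr3) senses such RNA in endosomes, cGAS (Mb21d1) senses cytosolic DNA and signals through STING (Tmem173), PKR (Eif2ak2) halts translation when it binds long paired RNA, ZBP1 binds RNA and DNA in the Z conformation and can start necroptosis, and ADAR edits paired RNA so that the other sensors do not react to it. Most of these genes are themselves induced by interferon. Setdb1 is a histone methyltransferase whose repressive mark keeps many retroelements silent, and sensors of this kind are known to respond to RNA of derepressed retroelements in other cells. RNA of the repeats themselves was not analysed here.

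The 10 sensor and adaptor genes Zbp1, Ddx58, Ifih1, Dhx58, Mavs, Mb21d1, Tmem173, Tlr3, Eif2ak2 and Adar were chosen by name, 10 of 29386 gene identifiers, and all 10 were present in every table. RNA-seq libraries came from 3 experiments in mice that share no library. In brown adipose tissue (BAT), 2 control mice (Setdb1 fl/fl; Adipoq-Cre-) were compared with 2 Setdb1 AKO mice (Setdb1 fl/fl; Adipoq-Cre+), whose Cre is driven by the adiponectin promoter of adipocytes, while other cells of the tissue are not targeted. In the second experiment, primary brown adipocytes with Setdb1 flox/flox and Rosa26Cre-ERT2 were given 4-OHT at 1 μM, which activates the Cre, or the vehicle ETOH, with 1 library each. In the third, primary brown adipocytes received a control siRNA (siNC, 1 library) or siRNA against Setdb1 (siSetdb1, 2 libraries). The titles of the 2 siSetdb1 libraries are numbered, without saying whether as replicates or as different siRNAs. Ages, sex, the meaning of TN_CE in the BAT titles, and whether the siSetdb1 libraries came from separate cultures were not given, and p-values therefore measure only the spread between these libraries. No BAT group carried Adipoq-Cre with intact Setdb1, so effects of the Cre and of the deletion cannot be told apart. Likewise no 4-OHT culture lacked the Cre or the floxed Setdb1. Effects of 4-OHT, of Cre activity and of the deletion therefore cannot be told apart either.

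The tables held 15979479 to 16940622 reads per BAT library, 29911734 and 30176359 in ETOH and 4-OHT, and 17593799 to 18468152 per siRNA library. Setdb1 was lower in every deleted or depleted library than in its control. It read 455.0 and 472.8 normalised counts in control BAT and 156.4 and 190.9 in Setdb1 AKO (limma, adjusted p = 0.0216, but 0.225 when control 1 and 0.230 when control 2 was left out, and 0.206 when low values were not filtered), 783.5 in siNC and 370.9 and 399.2 in siSetdb1 (limma, adjusted p = 0.0526), and 1070 and 620 counts in ETOH and 4-OHT. In siSetdb1 the adjusted p of Setdb1 was 1.14e-04 by edgeR and 0.0300 by DESeq2, and by limma under the alternative settings it was as high as 0.699. The 6 adipocyte markers summed to 6238 to 9044 RPKM (reads divided by gene length and by the library total) in BAT and 4177 to 4354 in the siRNA cells, with none at 0. In the ETOH and 4-OHT cultures they summed to 1981 and 2410, while 7 macrophage markers, none at 0, summed to 2308 and 1262 and 4 fibroblast markers to 1677 and 1492. The same macrophage markers summed to 162 and 104 in control BAT, 110 and 146 in Setdb1 AKO, 30.7 in siNC and 16.0 and 13.0 in siSetdb1, with Cd163 at 0 in all 3 siRNA libraries. In BAT, marker sums did not overlap between control and Setdb1 AKO for erythroid (629 and 676 against 917 and 918), endothelial (93.1 to 101 against 89.2 to 90.8) and leukocyte genes (3.15 and 3.70 against 2.35 and 2.90), and their part in the BAT changes was not tested. Of all single genes tested in BAT, 50% showed such a separation. Taken alone, each endothelial marker (Pecam1, Cdh5, Kdr and Tek) overlapped between the groups. Of the erythroid genes Hbb-bs overlapped, while Hba-a1 and Alas2 were higher in Setdb1 AKO. Of the leukocyte genes Ptprc, Cd3e and Itgax overlapped, while Cd79a was lower and Siglech higher in Setdb1 AKO, both at few reads. The ETOH and 4-OHT cultures, labelled as adipocytes, thus held macrophage markers at a summed level above that of the adipocyte markers in ETOH and below it in 4-OHT, and their part in the results below was not tested. Most macrophage marker counts were those of 1 gene, Lyz2, with 80947 in ETOH and 43473 in 4-OHT. The next of the 7, Mrc1, had 5548 and 3360. Each of the 7 was lower in 4-OHT than in ETOH. In bulk RNA, fewer cells of a type and less RNA per cell cannot be told apart.

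Interferon induces genes through the interferon-stimulated response element, to which the STAT and IRF factors bind. A core of this element, the letters GAAA, then NN (any bases), then GAAA, was searched on both strands (on the other strand it reads TTTC, NN, TTTC) in RefSeq promoter windows (GRCm38.p6, 250 bases before to 50 after the start). Windows were found for 7 of the 10 genes, and 3 of these, Ddx58, Ifih1 and Eif2ak2, held the motif, against 3.99% of all 27025 genes with a window. Among interferon-stimulated readout genes, 9 of 15 with a window held it. The 3 stretches are shown because they are the sensor promoters that held the motif, which capitals mark.
Ddx58, chr4:40239804-40239833, minus strand: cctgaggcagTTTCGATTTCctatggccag
Ifih1, chr2:62646206-62646233, minus strand: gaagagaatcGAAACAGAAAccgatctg
Eif2ak2, chr17:78882535-78882564, minus strand: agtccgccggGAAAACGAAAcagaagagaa
All 3 motifs lie just after the RefSeq start, beginning 2 bases after it in Ddx58, 32 in Ifih1 and 18 in Eif2ak2, within the first annotated exon. No match was found in the windows of Mavs, Mb21d1, Tlr3 and Adar, which says only that these letters are not there.

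In control BAT the sensors were transcribed at low levels, and the adaptors stood above them. Mavs was highest at 28.5 and 23.4 RPKM, followed by Tmem173 at 7.21 and 8.94, Eif2ak2 at 3.13 and 2.35 and Ddx58 at 2.80 and 2.49. Below these came Dhx58 at 1.68 and 1.40, Adar at 1.54 and 1.34, Ifih1 at 1.40 and 1.04, Zbp1 at 1.42 and 0.46, Tlr3 at 0.96 and 0.61 and Mb21d1 at 0.33 and 0.39. The ranges of Eif2ak2 and Ddx58 overlapped, as did those of each neighbouring pair from Dhx58 to Tlr3, so their order is not resolved, whereas Mavs, Tmem173 and Mb21d1 stood clear of their neighbours. In cells the order differed: Mavs and Eif2ak2 led in ETOH with 9.04 and 7.94 RPKM, and Mavs and Dhx58 led in siNC with 27.8 and 15.5. Mb21d1 was the lowest in siNC at 0.39 and Zbp1 in ETOH at 0.42.

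**Figure D1:**
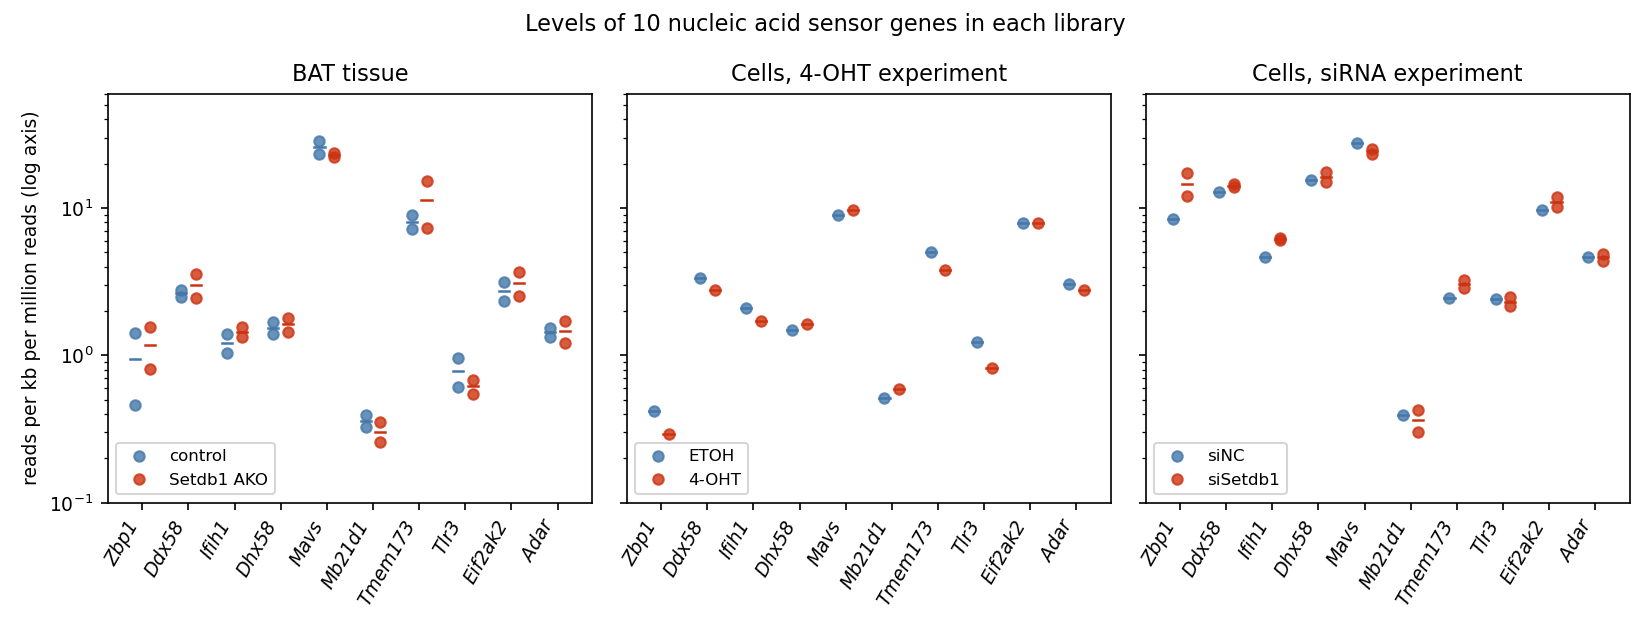
Level of each of the 10 genes in every library, in RPKM on a log axis; points are libraries, short lines are group means, blue marks controls and red marks libraries with Setdb1 deleted or depleted. Zbp1, Dhx58 and Ddx58 stand far higher in the siRNA experiment than in the others, and blue and red lie close together within an experiment.

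Within BAT none of the 10 genes passed the test between Setdb1 AKO and control. All 10 entered the fit, 7 had positive and 3 negative log2 fold changes, and the median was 0.20, beside 0.01 over all genes. By limma on log2(normalised count + 1), with adjustment over 14466 genes, 0 of 10 were called at a false discovery rate of 0.05, against a background of 1.68% of all genes (1% called higher and 0.677% lower). The count at an unadjusted p below 0.05 was 0 for limma, edgeR and DESeq2, where 17.7% of all genes had such a limma p, and edgeR and DESeq2 called 0 as well. In the authors' deposited table the smallest adjusted p among the 10 genes was 0.557, for Tmem173. The 95% intervals were wide, from 0.738-fold to 1.21-fold for Mavs and from 0.592-fold to 3.54-fold for Zbp1, and a missed threshold does not show that a gene was unchanged.

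The RIG-I-like receptors are RNA helicases, and gene coordinates here and below are those of GRCm38. Ifih1 (ENSMUSG00000026896, chromosome 2, 62595798 to 62646255) read 177.0 and 138.0 normalised counts in control and 186.2 and 210.5 in Setdb1 AKO BAT. It was the only one of the 10 genes in which the groups did not overlap, a separation seen in 50% of all genes (25.1% higher, 24.9% lower), and its log2 fold change was 0.34 (95% interval -0.19 to 0.87; limma, adjusted p = 0.483). Ddx58 (ENSMUSG00000040296, chromosome 4, 40203773 to 40239828) read 306.4 and 285.1 in control and 297.4 and 418.9 in Setdb1 AKO. Only Setdb1 AKO 2 lay above the controls, and the log2 fold change was 0.26 (-0.25 to 0.76; limma, adjusted p = 0.584). Dhx58 (ENSMUSG00000017830, chromosome 11, 100694884 to 100704271) read 85.3 and 74.1 against 80.3 and 98.0, a log2 fold change of 0.16 (-0.47 to 0.78; limma, adjusted p = 0.809). Mavs (ENSMUSG00000037523, chromosome 2, 131234063 to 131248025), the adaptor they share, had the narrowest interval. Its values of 1483 and 1271 in control and 1271 and 1322 in Setdb1 AKO gave a log2 fold change of -0.08 (-0.44 to 0.27; limma, adjusted p = 0.823).

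For the sensors of Z-form and paired RNA the mice of 1 group differed as much as the groups. Zbp1 (ENSMUSG00000027514, chromosome 2, 173206612 to 173218923) read 78.0 and 26.4 normalised counts in control and 48.4 and 90.8 in Setdb1 AKO BAT, so that control 1 lay above Setdb1 AKO 1. Its log2 fold change of 0.53 had an interval of -0.76 to 1.82 (limma, adjusted p = 0.667), and it was -0.23 without control 2 and 1.30 without control 1. Summed macrophage markers followed the same order of libraries, 104 in control 2, 110 in Setdb1 AKO 1, 146 in Setdb1 AKO 2 and 162 in control 1, apart from the exchange of the last pair, and their part was not tested. Taken alone, Adgre1, Csf1r and C1qa followed the order of the sum and Cd163 that of Zbp1. Cd68, Mrc1 and Lyz2 followed neither, and Mrc1 was higher in both Setdb1 AKO libraries than in both controls. Eif2ak2 (ENSMUSG00000024079, chromosome 17, 78852564 to 78882573) read 248.6 and 194.8 against 219.2 and 312.6, a log2 fold change of 0.25 (-0.32 to 0.82; limma, adjusted p = 0.646). Adar (ENSMUSG00000027951, chromosome 3, 89715022 to 89753446) read 194.5 and 176.5 against 168.8 and 232.1, with a log2 fold change of 0.09 (-0.45 to 0.64; limma, adjusted p = 0.871). Chrnb2, a receptor subunit gene on the opposite strand, shares 7252 bases with Adar, and strand use in the counting was not given in the sources used here. Chrnb2 had 308 reads over the BAT libraries together, beside 164 to 225 reads per BAT library for Adar. Dhx58, Mb21d1, Tlr3 and Eif2ak2 also overlap genes on the opposite strand, with few or no reads in these tables.

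The endosomal receptor and the DNA arm did not pass either. Tlr3 (ENSMUSG00000031639, chromosome 8, 45395665 to 45411080) read 78.0 and 51.7 normalised counts in control and 60.7 and 47.5 in Setdb1 AKO BAT, a log2 fold change of -0.24 (-1.03 to 0.55; limma, adjusted p = 0.761). Mb21d1 (ENSMUSG00000032344, chromosome 9, 78430526 to 78443237) was close to the detection limit, at 23 and 26 reads in control and 24 and 17 in Setdb1 AKO. Its interval of -1.18 to 0.84 around a log2 fold change of -0.17 (limma, adjusted p = 0.874) was among the widest of the 10 genes. Tmem173 (ENSMUSG00000024349, chromosome 18, 35733678 to 35740554) read 257.8 and 333.8 in control and 286.1 and 586.0 in Setdb1 AKO. The high value came from Setdb1 AKO 2 alone, and the log2 fold change was 0.48 (-0.30 to 1.26; limma, adjusted p = 0.505) and -0.04 without that library.

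Setdb1 AKO 2 was the highest of the 4 BAT libraries for 7 of the 10 genes, Zbp1, Ddx58, Ifih1, Dhx58, Tmem173, Eif2ak2 and Adar, where it was the highest for 27.1% of all genes tested. Setdb1 AKO 1 was the highest for none of the 10. Without Setdb1 AKO 2 the log2 fold changes were 0.01 for Ddx58, 0.01 for Dhx58, -0.01 for Eif2ak2 and -0.13 for Adar. Without Setdb1 AKO 1 they were 0.50, 0.30, 0.50 and 0.32. Ifih1 kept 0.25 without Setdb1 AKO 2 and was 0.16 without control 2.

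In the siRNA experiment the call of 1 sensor, Zbp1, depended on the test. The control and Setdb1 siRNAs differ, so effects of an siRNA itself and of lower Setdb1 cannot be told apart. In siNC, Zbp1 read 542.7 normalised counts, and in siSetdb1 1099.5 and 760.7. Both siSetdb1 libraries lay above siNC, and the log2 fold change was 0.75 (SE 0.19, 95% interval 0.33 to 1.17), 1.68-fold. With 1 residual degree of freedom, this SE rests largely on the spread of all genes rather than on that of Zbp1. By limma Zbp1 did not pass (adjusted p = 0.560 over all genes tested). EdgeR on recovered reads called it (log2 fold change 0.77, adjusted p = 0.0194), while DESeq2 did not (adjusted p = 0.946). The ratio of siSetdb1 1 alone to siNC was 1.02 on the log2 scale and that of siSetdb1 2 alone 0.49. Limma called 6 of all 15224 genes in this experiment, a background of 0.0394% (0.0328% higher, 0.00657% lower), and 0 of the 10 sensors. EdgeR, the test that called Zbp1, called 29 of the same genes higher and 8 lower. At an unadjusted p below 0.05 there were 2 sensors by limma and by edgeR and 1 by DESeq2, against 5.06% of all genes by limma.

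Ifih1 was the other sensor with a low unadjusted p. Its normalised counts were 695.7 in siNC, 918.1 in siSetdb1 1 and 888.0 in siSetdb1 2, a log2 fold change of 0.38 (0.09 to 0.66; limma, adjusted p = 0.935). With Zbp1 it was the only gene of the 10 whose interval left out 0, although edgeR did not call it (adjusted p = 0.592). The siSetdb1 libraries lay on 1 side of siNC for 6 of the 10 genes, 5 higher and 1 lower, beside 68% of all genes (34.1% higher, 33.8% lower), since only 1 control library had to be passed. Ddx58 read 1664 in siNC and 1750.1 and 1837 in siSetdb1, a log2 fold change of 0.11 (-0.14 to 0.36), and Eif2ak2 910.8, 931.3 and 1086.5, a change of 0.14 (-0.16 to 0.45). Tmem173, scarce in these cells, read 102.6, 134.8 and 118.1 (0.30, interval -0.26 to 0.85). Mavs was the 1 gene lower in both siSetdb1 libraries, with 1697 in siNC and 1393 and 1516 in siSetdb1, a log2 fold change of -0.22 (-0.49 to 0.04; limma, adjusted p = 0.941).

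In the remaining 4 genes the siSetdb1 libraries lay on either side of siNC. The normalised counts of Dhx58 were 922.7 in siNC against 1030.6 and 882.9 in siSetdb1, and Adar 688.8, 642.5 and 710.8. Their log2 fold changes were 0.05 (-0.26 to 0.35) and -0.03 (-0.34 to 0.28). Tlr3 read 230.9, 232.1 and 200.6, a change of -0.10 (-0.54 to 0.34), and Mb21d1 29.6, 22.3 and 31.6, a change of -0.15 with the wide interval of -1.24 to 0.94. Over all 10 genes the median log2 fold change was 0.08, beside -0.00342 over all genes.

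**Figure D2:**
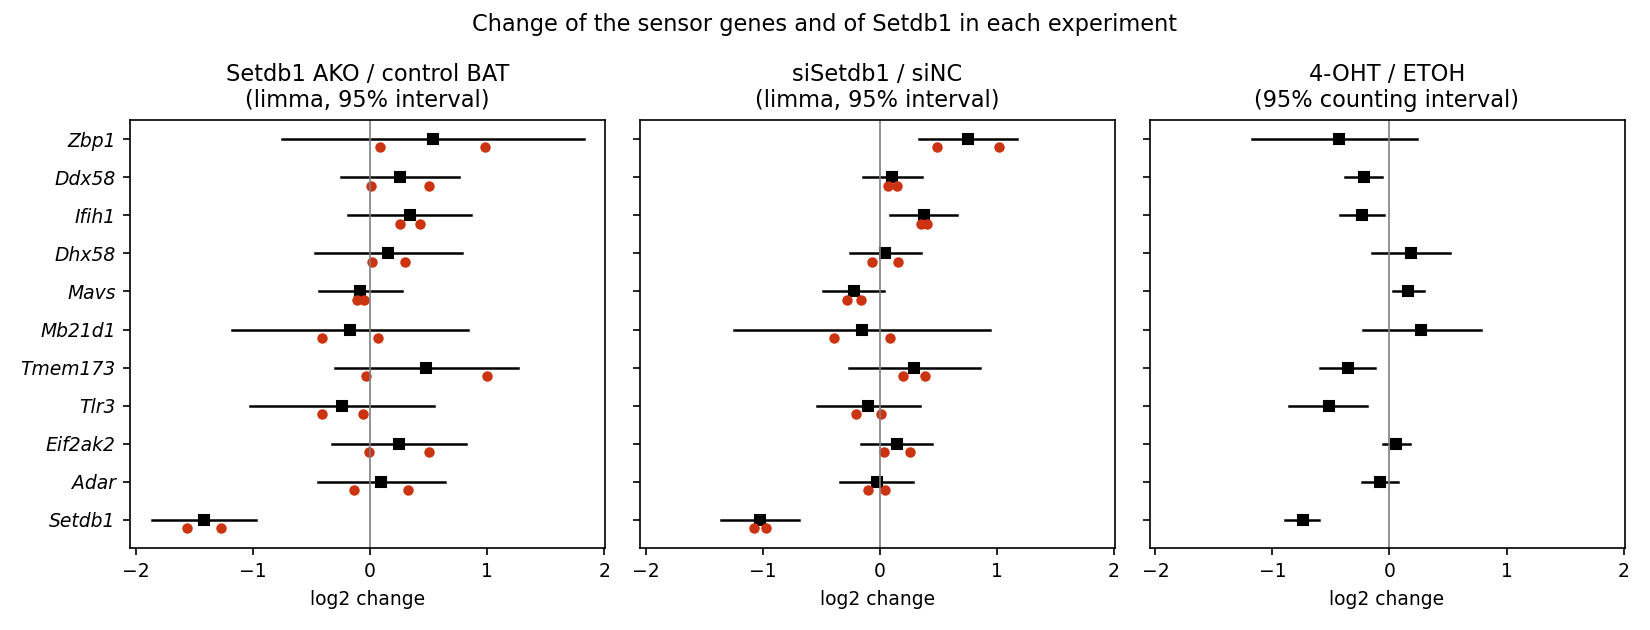
Log2 change of the 10 genes and of Setdb1 in each experiment. Black squares are the fitted changes (in 4-OHT the ratio of the libraries), black lines are 95% intervals (from limma in BAT and siRNA, covering counting error only in 4-OHT), and red points are single deleted or depleted libraries against the control mean; among sensor intervals from limma only those of Zbp1 and Ifih1 in siRNA, with 1 control library, leave out 0.

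After 4-OHT, with 1 library per condition and no replicate check, no sensor moved past 1.5-fold. Of the 10 genes, 9 had at least 50 counts in a library, and 0 of these passed 1.5-fold, against 10.4% of all 13969 genes kept (4.04% higher, 6.36% lower); 5 ratios were negative and 4 positive, with a median of -0.08. Tlr3 had the ratio farthest from 0 of the 9, at 191 counts in ETOH against 129 in 4-OHT, with a log2 ratio of -0.52 (95% counting interval -0.86 to -0.19). Tmem173 read 349 and 264 (-0.36, interval -0.60 to -0.12), Ifih1 513 and 424 (-0.23, interval -0.42 to -0.04) and Ddx58 711 and 592 (-0.22, interval -0.38 to -0.06). Beside these, the summed macrophage markers went from 2308 to 1262 RPKM between the same libraries, and their part in the ratios was not tested. Mavs read 904 and 981 counts (0.16, interval 0.03 to 0.29), Dhx58 146 and 161 (0.18), Mb21d1 63 and 74 (0.27), Eif2ak2 1214 and 1226 (0.06) and Adar 745 and 684 (-0.08). Zbp1, with 44 and 31 counts, was below the minimum, and its log2 ratio of -0.43 had a counting interval of -1.17 to 0.23. Intervals here cover counting error only, not differences between cultures.

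Zbp1 had the largest mean change of the 10 genes over the 5 deleted or depleted libraries, and its pattern was compared with that of 11353 protein-coding genes as a description. Its log2 changes were 0.09 and 0.98 in Setdb1 AKO 1 and 2, -0.43 in 4-OHT and 1.02 and 0.49 in siSetdb1 1 and 2. The nearest genes by Euclidean distance over these 5 values were Serpinb1a, a serine protease inhibitor, at 0.45, Rrad, a small GTPase, at 0.52, and Osmr, the oncostatin M receptor, at 0.55. Serpinb1a moved by 0.19, 0.84, -0.39, 0.65 and 0.66 in the same order of libraries.

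The genes that surround the sensors in their pathways were read from 6 lists. In BAT and in siRNA 0 of their members were called, by limma, edgeR or DESeq2. Limma called 1.68% of all genes in BAT and 0.0394% in siRNA. EdgeR called 148 genes higher and 102 lower in BAT, and 29 and 8 in siRNA. DESeq2 called 364 and 287 in BAT, and 8 and 3 in siRNA. With so few calls in siRNA, 0 there is not read as a result about the lists. In BAT, 15 of 20 interferon-stimulated readout genes, the products usually seen when sensors signal, had positive log2 fold changes, with a median of 0.39, beside 50.6% positive and a median of 0.01 over all genes. Of the 20, 2 had an unadjusted p below 0.05, a share below the 17.7% of all genes. Isg15, a ubiquitin-like protein, read 114.7 and 87.3 normalised counts in control and 159.5 and 200.2 in Setdb1 AKO (log2 fold change 0.83, interval 0.24 to 1.43; limma, adjusted p = 0.158), and Ifit2, an RNA-binding antiviral protein, 61.5 and 73.0 against 98.8 and 195.0 (1.04, interval 0.20 to 1.88; adjusted p = 0.193). Among 21 other nucleic acid sensors, 15 were positive with a median of 0.22. Mndal, of the PYHIN family, read 178.9 and 101.5 normalised counts in control and 174.9 and 343.6 in Setdb1 AKO (log2 fold change 0.86, interval -0.05 to 1.77; limma, adjusted p = 0.305). Mndal lies in a gene family of close copies, so reads may be split among them. In Isg15, Ifit2 and Mndal alike the highest value was that of Setdb1 AKO 2. Most of the 20 readout genes were likewise highest in that library, beside 27.1% of all genes tested.

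The list of PKR's regulators, the related eIF2 kinases and their targets held the smallest p-values of the lists in BAT, in opposite directions. Prkra, the activator PACT of PKR, read 227.5 and 229.3 normalised counts in control and 365.3 and 404.4 in Setdb1 AKO, a log2 fold change of 0.75 (interval 0.33 to 1.16; limma, adjusted p = 0.0912). Tarbp2, a paired-RNA-binding protein that restrains PKR, read 455.0 and 536.7 against 313.8 and 338.4, a change of -0.60 (-1.01 to -0.19; limma, adjusted p = 0.147). In both genes the groups did not overlap, as in 50% of all genes, and neither passed the threshold. Of the 11 genes in this list 6 were positive, with a median of 0.21, and 4 had an unadjusted p below 0.05, beside 50.6% positive and 17.7% with such a p over all genes. The signalling adaptors, kinases and factors had a median of 0.02 over 23 genes with none at an unadjusted p below 0.05; the smallest p-values were those of the necroptosis brake Casp8 (log2 fold change 0.35, adjusted p = 0.354) and the kinase Ikbke (-0.72, adjusted p = 0.385) in limma. The list of interferon ligands, receptors and JAK-STAT genes had a median of -0.01 over 13 genes, led by the receptor chain Ifnar2 (0.39, adjusted p = 0.218) and the kinase Jak2 (0.46, adjusted p = 0.432), again in limma. Nucleases and brakes had a median of -0.04 over 17 genes, led by Nlrx1 (0.52, adjusted p = 0.281), a mitochondrial regulator of MAVS, and Dicer1 (-0.31, adjusted p = 0.345).

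In siSetdb1 cells no readout gene was called, beside 0.0394% of all genes by limma. Of 20, 19 had positive log2 fold changes, with a median of 0.24 beside -0.00342 over all genes and 49.3% of all genes positive, and 5 had an unadjusted limma p below 0.05, beside 5.06% of all genes. All 20 changes share the single siNC library, and effects of an siRNA itself and of lower Setdb1 cannot be told apart. Ifit2 stood at 147.0 normalised counts in siNC against 237.1 and 239.3 in siSetdb1 (0.69, interval 0.25 to 1.13; limma, adjusted p = 0.723). Isg15 read 2031 in siNC and 2854 and 2187 in siSetdb1 (0.30, interval -0.03 to 0.62; limma, adjusted p = 0.941). Of 17 other sensors tested, 15 were positive with a median of 0.22, and medians were 0.06 for interferon ligands, receptors and JAK-STAT genes, 0.01 for adaptors, kinases and factors, -0.06 for the list of PKR regulators and eIF2 kinases and -0.09 for nucleases and brakes. Ifnb1 and Ifna4, genes of type I interferons, had 8 and 2 reads over the 3 siRNA libraries together and were not listed in the other tables.

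In the 4-OHT library the other nucleic acid sensors lay mostly below their ETOH values. Of 15 other sensors kept, 3 ratios were positive, with a median of -0.39, and 3 genes were lower past 1.5-fold, against 6.36% of all genes. They were Tlr8 (339 and 174 counts, log2 ratio -0.91), an endosomal RNA receptor, Aim2 (75 and 40, -0.83), the DNA sensor of an inflammasome, and Oas1a (94 and 56, -0.69), a synthase of oligoadenylates. The factors Irf5 (717 and 401, -0.79), Nfkb1 (5381 and 3433, -0.61) and Irf1 (1888 and 1151, -0.67) were also lower past 1.5-fold. Of the readout genes, Cxcl10 (154 and 76, -0.96) and Ifit3 (68 and 40, -0.70) were lower and Isg15 (44 and 93, 1.09) higher past 1.5-fold, while the median of that list was -0.00127 over 15 genes. These ratios rest on 1 library each. The 8 list genes lower past 1.5-fold were 3 of 15 other sensors, 2 of 23 adaptors, kinases and factors, and 2 of 15 readout genes. The last was 1 of 13 interferon ligands, receptors and JAK-STAT genes. Among 17 nucleases and brakes and 11 genes of the list of PKR regulators and eIF2 kinases there were 0. Over all genes the share was 6.36%. The fall of macrophage markers between these libraries, given above, stands beside all of these ratios.

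**Figure D3:**
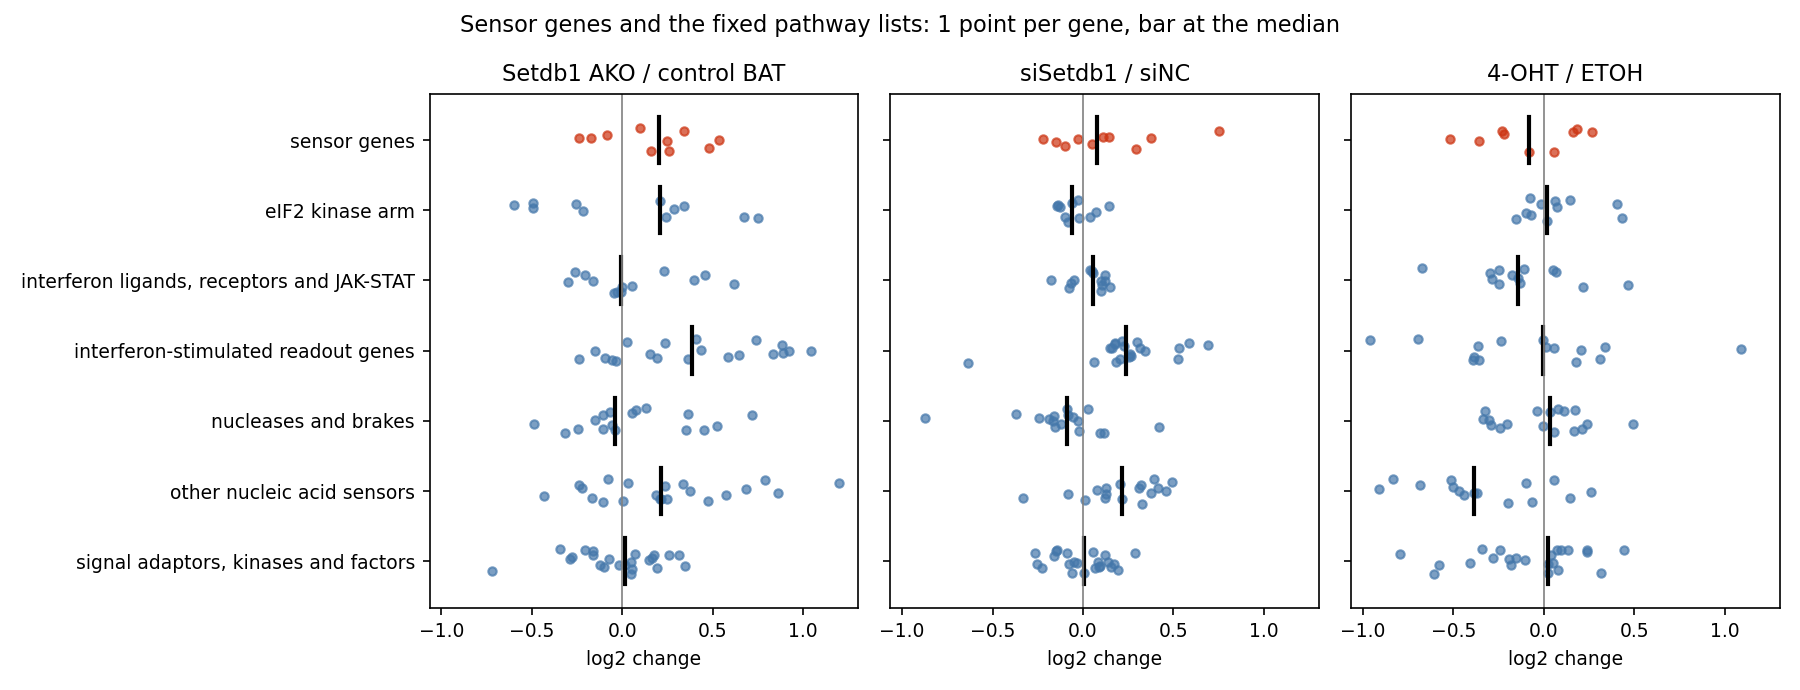
Log2 change of the 10 sensor genes (red) and of the genes in 6 pathway lists (blue) in the 3 experiments; each point is 1 gene that passed the filter and the black bar is the median. Interferon-stimulated readout genes lie mostly right of 0 in BAT and siRNA, and other nucleic acid sensors lie mostly left of 0 in 4-OHT.

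Sensor RNA also differed between the control cells of the 2 cell experiments. Zbp1 stood at 0.42 RPKM in ETOH (44 reads) and 8.44 in siNC (550 reads), 19.4-fold higher with 2 reads added to each. Dhx58 was 10.3-fold higher in siNC (1.49 and 15.5 RPKM), Ddx58 3.83-fold (3.37 and 12.9), Mavs 3.08-fold (9.04 and 27.8) and Ifih1 2.22-fold (2.10 and 4.68). These 5 of the 10 genes were past 2-fold higher in siNC, where 17.3% of all 14015 genes kept were. Tmem173 was the 1 gene past 2-fold lower, at 5.07 RPKM in ETOH and 2.45 in siNC, beside 27.8% of all genes. Tlr3, Adar, Eif2ak2 and Mb21d1 differed by less than 2-fold.

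The readout genes showed the same contrast. Past 2-fold higher in siNC were 15 of 20 and lower 0, with a median log2 ratio of 3.89 beside -0.05 over all genes. Isg15 had 44 reads in ETOH and 2058 in siNC, 72.5-fold higher, Ifi44 20 and 770, 56.8-fold, Rtp4, a chaperone-like interferon-induced gene, 69 and 2025, 46.2-fold, and Bst2, the tether that holds virions on the cell, 430 and 5711, 21.4-fold. The 4 were picked once their values were known. Cxcl10, Ifit2 and Parp14 differed by less than 2-fold. Each side is 1 library, scaled by its own total and from separately made tables, so no test was possible. Culture, siRNA treatment and cell makeup differ together between these experiments and cannot be told apart, the macrophage markers standing at 2308 RPKM in ETOH and 30.7 in siNC. 

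**Figure D4:**
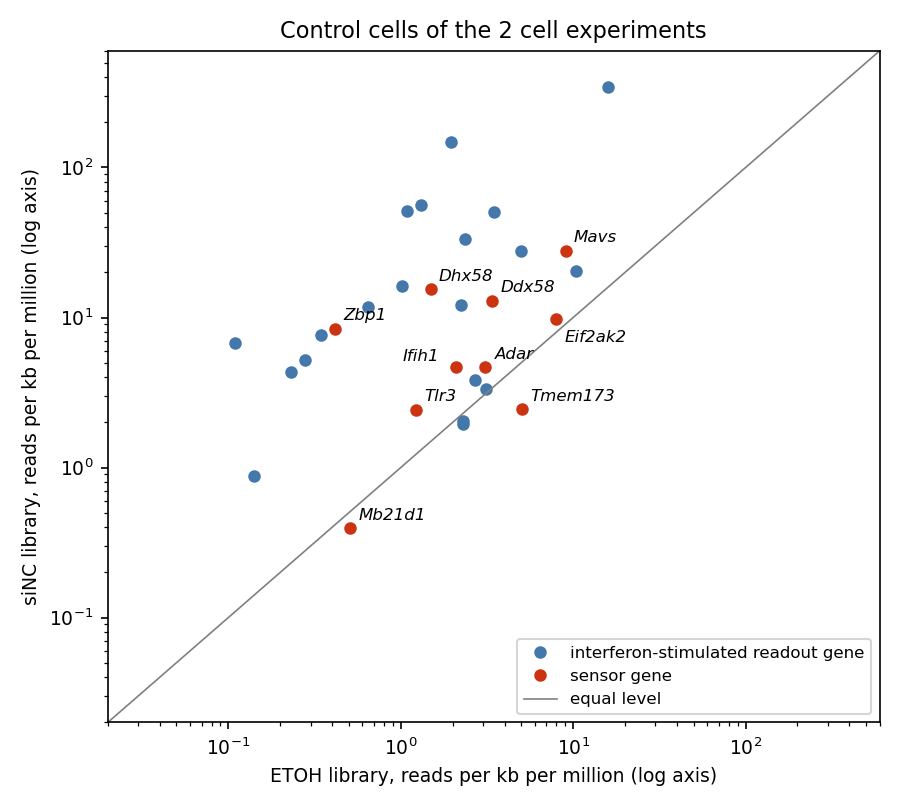
Level in the ETOH library (x axis) and the siNC library (y axis), in RPKM on log axes, for the 10 sensor genes (red, named) and the interferon-stimulated readout genes (blue); the grey line marks equal levels. Zbp1, Dhx58 and Ddx58 lie above the line with most of the readout genes, and Tmem173 and Mb21d1 lie below it.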

How the data were processed

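Libraries of poly(A) RNA were prepared with an NEBNext kit and read as pairs on an Illumina NovaSeq, per the labels. The submitters' processing notes name, without role or order, the trimmer Trimmomatic (0.39), the aligner STAR (2.7.10a), the counter featureCounts (2.0.3), the package DESeq2 (1.36.0) and the build GRCm38. BAT and siRNA tables hold a deposited signal, which is the number of reads multiplied by a factor of each library; whole reads were recovered from it (100% of values within 0.05 reads). The siRNA tables share siNC and were joined with a factor of 1.0024. The deposited 4-OHT table gives raw counts. A log2 fold change and an adjusted p-value of the authors, per the file headers, are used only where named.

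Main tests were limma (3.58.1) on log2(normalised count + 1), eBayes with trend, for genes with at least 10 normalised counts in 2 BAT libraries or 1 siRNA library, adjusted by Benjamini-Hochberg over all genes; the pseudocount shrinks the fold of genes with few reads. The single siNC library is taken to vary as siSetdb1 does, with 1 residual degree of freedom. Alternatives were edgeR (4.0.16) and DESeq2 (1.42.0) on recovered reads, other scalings, pseudocounts and filters, and leaving out libraries. For 4-OHT, log2 ratios of TMM-scaled CPM (prior count 2) were given where a library had at least 50 counts, with no test. Pathway genes named were, per list, those called, otherwise the 2 with the smallest p in BAT, and those past 1.5-fold in 4-OHT. A gene that this rule names is not reported here. The 10 genes and the lists were chosen with earlier results of these data known. The limma fits were tested on simulated data, and the edgeR and DESeq2 fits and the 4-OHT ratios were not.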

Additional observations from a re-analysis of the deposited data

Results flagged for a closer look

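For 5 of the 10 genes every library of 1 experiment moved one way and the 4-OHT library the other. How many of all genes did so was not counted, so 5 of 10 is not read as particular to the sensors. Both siSetdb1 libraries lay on 1 side of siNC in 68% of all genes, and 50.2% of all 4-OHT ratios were positive. The differences were not tested, and the 4-OHT side is 1 library. For Zbp1 the mean log2 change in BAT exceeded the 4-OHT ratio by 0.96 and that in siRNA by 1.18. Its 4-OHT ratio rests on 44 and 31 counts, below the minimum of 50, with a counting interval of -1.17 to 0.23, and its BAT change was -0.23 without control 2. For Ddx58 the excess was 0.48 in BAT and 0.33 in siRNA. For Ifih1 it was 0.57 in BAT and 0.61 in siRNA. Mavs went the opposite way, with differences of -0.24 for BAT and -0.38 for siRNA. For Tmem173 the siRNA mean exceeded the 4-OHT ratio by 0.65. Macrophage markers were lower in the 4-OHT than in the ETOH library, as given above, and their part was not tested.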

How the results depend on the processing

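No sensor or pathway list gene was called in BAT under any of the 12 alternatives, nor a pathway list gene in siRNA under any of its 7; the 1 sensor called was Zbp1 in siRNA by edgeR (1 sensor higher), and its adjusted p ranged from 0.0194 to 0.946. In BAT, 7 changes that were not called turned sign when 1 library was left out. With 1 library left out at a time, Zbp1 ran from -0.23 (without control 2) to 1.30, Mavs from -0.19 to 0.028 (without control 1), Tlr3 from -0.53 to 0.052 (without control 1), and, with the value of opposite sign being that without Setdb1 AKO 2, Mb21d1 from -0.41 to 0.063, Tmem173 from -0.036 to 1.00, Eif2ak2 from -0.0058 to 0.50 and Adar from -0.13 to 0.32. All genes called in BAT, 145 higher and 98 lower, became 364 and 287 with DESeq2, 11 and 0 with no filter, and from 22 to 98 higher and 0 to 59 lower with 1 library left out. All genes called in siRNA, 5 higher and 1 lower, became 29 and 8 with edgeR, 8 and 3 with DESeq2, 14 and 5 with TMM scaling, 22 and 7 with a filter of at least 50, 0 and 0 with no filter, and 2 lower with a pseudocount of 5. In 4-OHT, 564 genes higher and 888 lower past 1.5-fold became 1581 and 2145 with at least 10 counts. The causes were not tested. The BAT titles share replicate numbers but nothing says that they pair the mice, and same-numbered libraries deviated with a correlation of -0.02; with a replicate block 181 genes were higher and 118 lower, and 0 sensor or list genes were called. The siNC library could not be left out, and without a siSetdb1 library no test remained. Depth limits Mb21d1, at 17 to 26 reads per BAT library.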
